A study of Homo sapiens with 39 samples.

Results

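The genes described here are 118 human zinc finger genes whose symbols read ZNF followed by digits. They were chosen by their read level: the mean count of each was 300 or more in all 5 of the authors' deposited tables, out of 471 symbols of that form and 23710 symbols in all. The mean counts that chose them are a description and carry no test. Just inside the limit, the lowest mean count over the tables was 301 for ZNF32, 304 for ZNF71, 307 for ZNF41, 308 for ZNF200 and 310 for ZNF219. Just outside it were ZNF319 at 298, ZNF581 at 297, ZNF766 at 293, ZNF652 at 292 and ZNF180 at 291. By RefSeq, 27 of the 118 lie on chromosome 19 and 91 on other chromosomes, with 12 on chromosome 16, 10 on chromosome 1 and 9 on chromosome 7.

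C2H2 zinc fingers are small folds in which a pair of cysteines and a pair of histidines hold a zinc ion, and tandem arrays of them read DNA. In humans the ZNF genes make up much of the largest family of transcription factors, and many sit in tandem clusters on chromosome 19 that grew by duplication. Many cluster genes also carry a KRAB box, which recruits the co-repressor TRIM28 and H3K9 methylation, and a large share of KRAB proteins bind and silence transposable elements.

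The 39 RNA sequencing libraries came from 2 human cell lines with less or more of the ubiquitin ligase TRIM37. CHP-134 was derived from a neuroblastoma, and RPE1 from retinal pigment epithelium immortalised with telomerase. In RPE1 there were 9 libraries of a TRIM37 knockout and 9 of wild type. The wild type titles number replicates within replicates, while the knockout titles run in a single series. The titles do not say what that nesting stands for. CHP-134 gave 3 libraries of TRIM37 mutant clone 2, 3 of mutant clone 1, both labelled as partial knockouts, and 3 of a wild type that both clones were compared with. A second pair of RPE1 clones, TetOn clone 5 and TetOn clone 4, carried an inducible TRIM37. Each TetOn clone had 3 libraries after 24 h in 1 µM doxycycline and 3 without. Each mutant and each TetOn line is a single clone, and the labels do not name the knockout's clone, so TRIM37 and the clone cannot be told apart there. No source used here says that replicates were separate cultures, so the q values may measure technical spread only.

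The files used here hold 1 comparison table per altered group, with no value per library, so neither the depth of a library nor overlap between groups is known. A gene is called usable where the authors gave it a test and called where their q, an adjusted p-value, lay under 0.05. A group level is the deposited mean count split between the groups by the deposited fold change, computed here. The CHP-134 wild type could be split out of both CHP-134 tables, and over 7468 genes the levels from the clone 2 table stood above those from the clone 1 table by a near constant 0.0893 on the log2 scale (5th to 95th percentile 0.0826 to 0.0958). TRIM37 had a log2 fold change of -1.95 in the knockout, -1.75 in clone 2, -1.66 in clone 1, 2.64 in TetOn clone 5 and 3.19 in TetOn clone 4, all from the authors' deposited tables. The headers do not name the numerator, so these signs set the direction of each table. The neuroblastoma marker MYCN had mean counts of 46600 and 49700 in the authors' deposited CHP-134 tables and at most 0.18 in the RPE1 tables, while DBH and TH stayed at 9.18 or less in CHP-134. The epithelial keratins KRT8 and KRT18 were at 10700 to 25800 in RPE1 and at 0.531 or less in CHP-134. These are bulk libraries, in which fewer cells of a kind and less RNA per cell cannot be told apart.

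The protein that these genes share is seen best in a single finger. The stretches below, from GENCODE v29 transcripts, are shown because ZNF268 had one of the knockout's 4 largest called rises and the other genes moved in opposite directions in the CHP-134 clones. Each codes for 1 finger and the linker to the next, and capitals mark the codons of the zinc-binding cysteines and histidines.
ZNF268 (chromosome 12): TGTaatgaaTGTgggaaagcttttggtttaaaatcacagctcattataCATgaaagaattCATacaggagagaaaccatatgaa
ZNF473 (chromosome 19): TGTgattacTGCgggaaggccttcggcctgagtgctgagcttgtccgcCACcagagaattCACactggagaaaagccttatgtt
ZNF544 (chromosome 19): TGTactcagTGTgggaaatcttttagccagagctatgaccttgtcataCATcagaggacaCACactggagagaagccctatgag
ZNF721 (chromosome 4): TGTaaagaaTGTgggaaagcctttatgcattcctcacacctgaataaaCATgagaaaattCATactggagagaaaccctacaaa
Over these 84 bases, ZNF721 and ZNF268 share 63 and ZNF721 and ZNF473 share 47, the highest and lowest of the 6 pairs. A coding sequence was found for 116 of the 118 genes, with a median of 9 fingers and up to 33. A KRAB box was found in 36 of them (31.0%), against 262 of 463 ZNF genes of any level (56.6%). On chromosome 19, 16 of the 27 genes (59.3%) have the box, against 20 of 89 elsewhere (22.5%). In 12 of the 118, 10% or more of the transcript's 50-base stretches also occur in another gene's transcript. Counts of these are uncertain: they include ZNF410 at 85.5%, ZNF395 at 41.7%, ZNF512 at 34.1%, ZNF358 at 19.5% and ZNF277 at 14.6%.

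The first comparison asks which of these genes differed when TRIM37 was lost from RPE1. In the authors' deposited table, 23 of 115 usable genes rose and 19 fell, a share called of 36.5%. Over all usable genes the share called was 53.6%, and over usable genes past the same count limit it was 56.1%. The median log2 fold change of the ZNF genes was -0.0024, against 0.0057 over all genes past the limit. Most changes were small: the median absolute log2 fold change was 0.088.

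All 4 genes on chromosome 12 rose, and they were the 4 largest rises among usable genes. ZNF219, set aside by the authors as an outlier, had a larger value of 0.81 in the authors' deposited table. ZNF740 stood at a level of 2480 in the knockout and 1580 in wild type, a log2 fold change of 0.65 with a standard error (SE) of 0.0377 in the authors' deposited table. ZNF268 stood at 1470 in the knockout and 947 in wild type, a log2 fold change of 0.64 (SE 0.0435) in the authors' deposited table. ZNF384, known as a fusion partner in acute leukaemia, stood at 3090 in the knockout and 2150 in wild type, and the authors' deposited table gave 0.52 (SE 0.0371). ZNF664, the gene with the highest mean count of the 118 there, stood at 10400 in the knockout and 7430 in wild type, with 0.49 (SE 0.0223) in the authors' deposited table. These rises were of the size of the whole chromosome's. Of 402 usable chromosome 12 genes past the limit, 387 rose and 7 fell in the authors' deposited table, with a median log2 fold change of 0.52. With that chromosome's own median subtracted, ZNF664 was at -0.024.

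Among usable genes away from chromosome 12 the rises were smaller. The authors' deposited table gave ZNF668 a rise of 0.46 in log2 fold change (SE 0.0861, q 4.63e-07). ZNF598, a ubiquitin ligase that marks stalled ribosomes, ZNF335, a gene mutated in inherited microcephaly, and ZNF746, a substrate of the ligase parkin, each rose by 0.28 in that deposited table of the authors. Their SEs were 0.0639, 0.0409 and 0.067 in the authors' deposited table.

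ZNF32 on chromosome 10 fell the most, and it was the only usable one of the 118 past a log2 fold change of 1 in any of the 5 comparisons. ZNF219, at 1.10 in CHP-134 clone 2 in the authors' deposited table, was set aside there as an outlier. Past the count limit, 0.606% of all usable genes were called with such a change in the knockout. Its level was 113 in the knockout and 493 in wild type, a log2 fold change of -2.12 (SE 0.102, q printed as 0) in the authors' deposited table. The adjacent ZNF485 and ZNF239 fell with it, and the authors' deposited table gave them -1.17 (SE 0.189) and -1.66 (SE 0.136). Further out on that side, ZNF487P had -0.049 with a q of 0.831, and on the other side RASSF4 had -0.98, in the authors' deposited table. These neighbours, like all neighbours described here, were looked at after the values were seen.

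ZNF512 fell to a level of 794 in the knockout, against 1330 in wild type, which the authors' deposited table gives as -0.74 (SE 0.0488). Its nearest neighbours did not share that size of fall. On one side CCDC121 had 0.038, GPN1 0.12 and SUPT7L -0.12 in the authors' deposited table. On the other side C2orf16 was too low for a test, and GCKR rose by 0.75 and FNDC4 by 0.57 in the authors' deposited table. ZNF428 stood at 550 in the knockout and 834 in wild type, a log2 fold change of -0.60 (SE 0.0822) in the authors' deposited table. Near ZNF428, CADM4 fell by 1.27 and PINLYP by 0.86, and PLAUR rose by 0.44, in the authors' deposited table. IRGQ had -0.18 and ZNF576 had 0.12 there, with q values of 0.0728 and 0.338. ZNF281, a transcription factor linked to stem cell identity, stood at 1430 in the knockout and 2030 in wild type, with -0.51 (SE 0.0482) in the authors' deposited table. The next falls were ZNF330, a nucleolar protein gene, at -0.35, ZNF25 at -0.33, ZNF562 at -0.31 and ZNF827 at -0.24 in the authors' deposited table. Of these 8 largest falls, only ZNF428 and ZNF562 are on chromosome 19.

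On chromosome 19 as a whole, 2 of 26 usable ZNF genes rose and 5 fell in the knockout (26.9% called), against 21 up and 14 down of 89 on other chromosomes (39.3%). Their median log2 fold changes in the authors' deposited table were -0.04 on chromosome 19 and 0.0092 elsewhere. The 2 that rose there were ZNF574 at 0.19 and ZNF584 at 0.16, and besides ZNF428 and ZNF562 the falls were ZNF627 at -0.18, ZNF561 at -0.10 and ZNF146 at -0.10 in the authors' deposited table. The chromosome as a whole leaned the other way: of 381 usable chromosome 19 genes past the limit, 171 rose and 54 fell in the authors' deposited table, with a median of 0.078. No test of that contrast was made. The other chromosomes held few calls each: on chromosome 16, 3 of 12 rose and none fell, and on chromosome 7, 2 of 9 rose and none fell. Chromosome 10 with 1 up and 2 down of 3 and chromosome 4 with 1 up and 2 down of 3 had every member called.

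**Figure D1:**
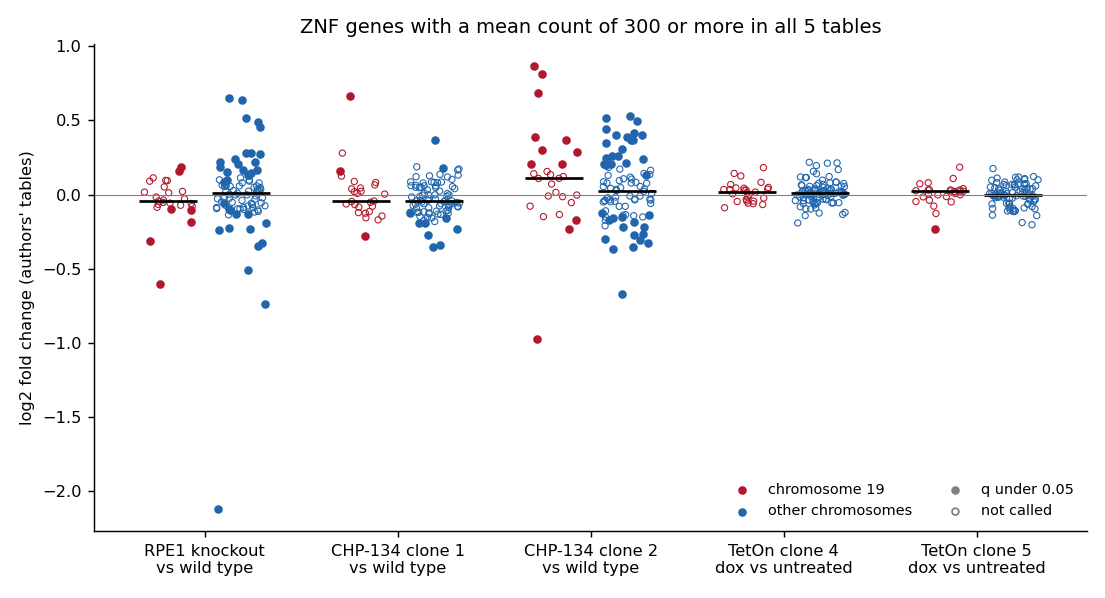
Log2 fold change of each usable ZNF gene past the count limit (y axis) in the 5 comparisons (x axis), with chromosome 19 genes in red and the others in blue. Filled points have a q under 0.05 and bars are medians. The knockout and CHP-134 clone 2 hold most filled points, ZNF32 lies alone at -2.12, and the TetOn clones hold 1 filled point, ZNF358.

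The CHP-134 clones were compared with their wild type to ask which genes differed at a lowered TRIM37 dose in neuroblastoma cells. Since both comparisons use the same wild type libraries, the 2 sets of fold changes are given side by side and their likeness is not counted as evidence. Clone 2 had 30 of 114 usable ZNF genes up and 19 down in the authors' deposited table, a share called of 43.0%. The share called there was 46.2% over all usable genes and 49.6% past the same count limit. With the trend of fold change on transcript GC content subtracted, the clone 2 split became 34 up and 8 down. Clone 1 had 4 of 114 usable ZNF genes up and 9 down in the authors' deposited table (11.4%), where 18.7% of all usable genes and 19.4% of those past the limit were called.

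Of the clone 2 calls among the ZNF genes, more rose than fell. Past the same limit, 1422 genes of any kind rose and 2085 fell in clone 2 in the authors' deposited table, which is 20.1% up and 29.5% down. The ZNF median was 0.036 in clone 2 and -0.042 in clone 1, against -0.042 and -0.033 over all genes past the limit. No test of this difference was made.

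**Figure D2:**
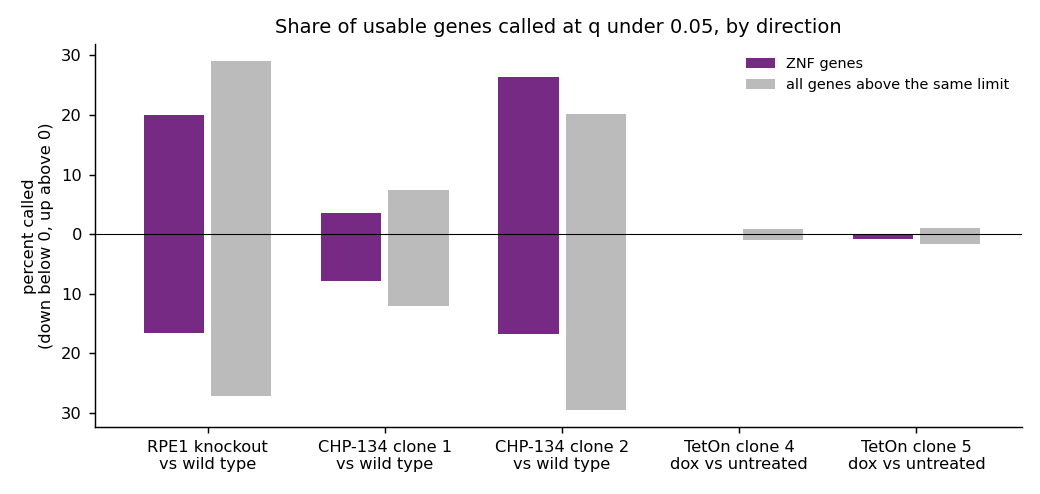
Share of usable genes called at a q under 0.05 (y axis, percent, up above 0 and down below 0) in the 5 comparisons (x axis), for the ZNF genes in purple and for all genes past the same count limit in grey. ZNF genes have the shorter bars in the knockout, and in CHP-134 clone 2 they have the taller bar above 0 and the shorter below it.

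Among usable genes in clone 2, ZNF428 rose most and ZNF544 fell most. ZNF428 stood at a level of 1580 in clone 2 and 864 in wild type, a log2 fold change of 0.87 (SE 0.129) in the authors' deposited table. In clone 1 it stood at 1300, against 820 in wild type, and the authors' deposited table gave 0.67 (SE 0.138). It thus rose in both CHP-134 clones, and it fell in the RPE1 knockout. The gene next to it, ZNF576, had -0.055 in clone 2 and -0.00057 in clone 1 in the authors' deposited tables. SRRM5, on the other side, had -0.25 in clone 2 and 0.15 in clone 1 there. Further out, PINLYP had 0.03 and -0.013, and PLAUR had 0.47 and -0.52, in the same order. CADM4, set aside as an outlier, had 0.73 and 0.33. IRGQ rose in both, by 0.26 in clone 2 and 0.27 in clone 1, in the authors' deposited tables. In the authors' deposited tables ZNF276 also rose in both, by 0.49 (SE 0.0935) in clone 2 and 0.37 (SE 0.0795) in clone 1. ZNF267, at -0.33 in clone 2 and -0.28 in clone 1, and ZNF7, at -0.22 and -0.23, fell in both in the authors' deposited table. These 4 were the ones called in both clones with 1 sign.

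A further 6 genes were called in both clones with opposite signs, so the tested differences are given with them. How all genes called in both clones divide by sign is not given here. Whether this split is particular to the ZNF genes past the count limit was thus not tested. ZNF473 encodes a protein of the U7 snRNP machinery that trims histone messenger RNAs. It stood at 1990 in clone 2 and 1130 in wild type, with a log2 fold change of 0.81 (SE 0.0497) in the authors' deposited table. In clone 1 it stood at 874, against 1060 in wild type, with -0.28 (SE 0.0779) in the authors' deposited table. The difference, clone 2 minus clone 1, was 1.09 (SE 0.0924). Its adjusted p was 4.63e-30, from a two-sided normal test with Benjamini-Hochberg adjustment over all genes usable in both tables. The shared wild type spread is counted in both SEs, which by itself makes that test conservative. It does not cover spread between clones, since 1 clone stands behind each value. Fewer differences passed with the null rescaled to its central spread, as given below.

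ZNF544 did the opposite. It stood at 483 in clone 2 and 947 in wild type, a log2 fold change of -0.97 (SE 0.0722), and at 996 in clone 1 and 892 in wild type, a log2 fold change of 0.16 (SE 0.0588), in the authors' deposited tables. The difference was -1.13 (SE 0.0931), with an adjusted p of 7.44e-32. On one side of ZNF544, ZNF274 and ZNF329 rose in clone 2, by 0.28 and 0.31, and on the other ZNF8 was at -0.045 with a q of 0.662, in the authors' deposited table.

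ZNF721 stood at 961 in clone 2 and 665 in wild type, and at 487 in clone 1 and 623 in wild type. The authors' deposited tables gave log2 fold changes of 0.53 (SE 0.0838) for clone 2 and -0.35 (SE 0.0886) for clone 1, a difference of 0.88 (SE 0.122). The gene next to it on each side on chromosome 4 did likewise. PIGG had 0.74 in clone 2 and -0.36 in clone 1, and ZNF141 had 0.65 in clone 2 and -0.44 in clone 1, each with a q under 0.05 in the authors' deposited tables. ZNF732, beyond ZNF141, did not. It fell by 2.11 (SE 0.246) in clone 2 and had -0.54 in clone 1 with a q of 0.0559 in the authors' deposited tables. ZNF217, an oncogene amplified in breast cancer, stood at 4210 in clone 2 and 3210 in wild type, and at 2370 in clone 1 and 3010 in wild type. Its fold changes in the authors' deposited tables were 0.39 (SE 0.054) for clone 2 and -0.34 (SE 0.0589) for clone 1 on the log2 scale, and the difference was 0.73 (SE 0.0799). ZNF395 had 0.37 in clone 2 and -0.19 in clone 1, and ZNF706 had -0.27 in clone 2 and 0.18 in clone 1, in the authors' deposited tables. Both differences passed, at 0.56 and -0.44.

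ZNF639 lies on chromosome 3 and encodes a factor amplified in squamous cell cancers. It stood at 1910 in clone 2 and 3030 in wild type, a log2 fold change of -0.67 (SE 0.0524) in the authors' deposited table. In clone 1 it stood at 2780, against 2860 in wild type, with -0.038 (SE 0.0468) in the authors' deposited table. Its neighbours fell too in clone 2: KCNMB3 fell by 0.57, PIK3CA by 0.70, MFN1 by 0.78, GNB4 by 0.79 and ACTL6A by 0.72 in log2 fold change, from the authors' deposited table. ZMAT3, beyond PIK3CA, had -0.079 in clone 2 with a q of 0.249 in the authors' deposited table. In clone 1, KCNMB3 had -0.14 and the other 4 lay between -0.051 and 0.0047, each with a q above 0.05 in the authors' deposited table.

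The remaining large changes were called in 1 clone, which by itself is not a difference between the clones. ZNF326, ZNF367, ZNF277, ZNF800, ZNF592 and ZNF318 did not pass the test of that difference. In clone 1, ZNF358 had 0.28 with a q of 0.0538 and ZNF326 had -0.18 with a q of 0.0698 in the authors' deposited table. In clone 2, ZNF358 rose by 0.69 (SE 0.0887), ZNF777 by 0.52 (SE 0.0882), ZNF268 by 0.44 (SE 0.0869) and ZNF48 by 0.42 (SE 0.0784) in the authors' deposited table. ZNF326, whose protein links transcription to splicing in the DBIRD complex, fell there by 0.36 (SE 0.0816) in the authors' deposited table. ZNF330 fell there by 0.35 (SE 0.0781), ZNF367 by 0.31 (SE 0.102), ZNF277 by 0.30 (SE 0.097) and ZNF800 by 0.27 (SE 0.0917) in the authors' deposited table. In clone 1, ZNF592 fell by 0.19 (SE 0.0721) and ZNF318 by 0.16 (SE 0.0396) in the authors' deposited table. ZNF330 and ZNF268 were also called in the RPE1 knockout, where ZNF330 fell by 0.35 and ZNF268 rose by 0.64, and so were ZNF367 at -0.19 and ZNF777 at 0.20, in the authors' deposited table. Of the ZNF genes past the count limit, 19 were called in both the knockout and clone 2. Some of the 19 had opposite signs there, among them ZNF395, ZNF664 and ZNF706. The same count over all genes is not given here.

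In all, 20 of 114 ZNF genes differed between the clones (17.5%), 16 of them higher in clone 2. The share past this test was 20.5% over all genes usable in both tables and 18.8% past the count limit, with 8.58% up and 10.2% down. On chromosome 19 it was 6 of 27 (22.2%), namely ZNF473, ZNF358, ZNF627, ZNF134 and ZNF264, higher in clone 2, and ZNF544, lower. Elsewhere it was 14 of 87 (16.1%).

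**Figure D3:**
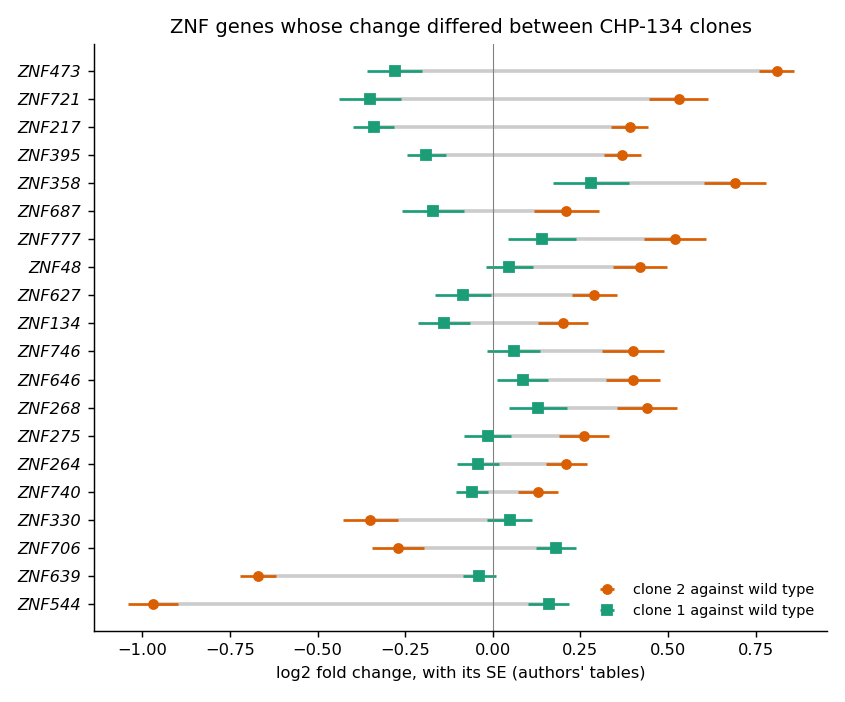
Log2 fold change against wild type (x axis, with SE) in CHP-134 clone 2 (orange circles) and clone 1 (green squares) for the 20 ZNF genes whose change differed between the clones, sorted by the difference. ZNF473, ZNF721, ZNF217 and ZNF395 lie right of 0 in clone 2 and left of it in clone 1, and ZNF544 and ZNF706 do the reverse.

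On chromosome 19, 9 of 27 ZNF genes rose and 3 fell in clone 2 (44.4% called), against 21 up and 16 down of 87 elsewhere (42.5%), in the authors' deposited table. The medians were 0.11 on chromosome 19 and 0.022 elsewhere. All 319 usable chromosome 19 genes past the limit had 171 up and 14 down with a median of 0.2 in the authors' deposited table. The chromosome 19 ZNF genes thus sat between the other ZNF genes and their own chromosome, with no test of that order. Besides ZNF428, ZNF473 and ZNF358, the rises were ZNF574 at 0.39, ZNF71 at 0.37, ZNF226 at 0.30, ZNF627 at 0.29, ZNF264 at 0.21 and ZNF134 at 0.20 in the authors' deposited table. With ZNF544, the falls were ZNF714 at -0.23 and ZNF146 at -0.17 in the authors' deposited table. Chromosome 19 has 11 clusters by the rule used here, a run of at least 5 ZNF genes with at most 5 other genes between neighbours. The 21 genes in clusters had 5 up and 3 down with a median of 0.071 in the authors' deposited table. The 6 outside them had 4 up and none down, with a median of 0.54 in the authors' deposited table. The largest cluster, from ZNF264 to ZNF446, holds 41 ZNF genes and 7 of the 118, while the 37 of the cluster from ZNF101 to ZNF254 include 1, ZNF714. In clone 1, 2 chromosome 19 genes rose and 1 fell of 27 (11.1%), against 2 up and 8 down of 87 elsewhere (11.5%), in the authors' deposited table. On chromosome 16, 6 of 10 usable ZNF genes rose in clone 2 and 1 fell, with a median of 0.22, and over 324 usable genes of that chromosome 105 rose and 46 fell in the authors' deposited table.

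By protein class, the KRAB genes had 9 up and 3 down of 36 in clone 2 (33.3%), 0 up and 3 down in clone 1 (8.33%), and 7 up and 5 down in the knockout (33.3%), in the authors' deposited tables. The genes with fingers and no KRAB box had 21 up and 14 down of 75 in clone 2 (46.7%), 4 up and 6 down of 75 in clone 1 (13.3%), and 16 up and 13 down of 76 in the knockout (38.2%), in the authors' deposited tables. Of all usable genes past the same limit, 49.6% were called in clone 2, 19.4% in clone 1 and 56.1% in the knockout. The KRAB genes also had lower mean counts, with a median of 870 against 1270 in clone 2, and larger SEs, with a median of 0.0831 against 0.0748. Their part in the shares was not tested.

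Over the 5 comparisons, 44 of the 118 were called in none, 47 in 1, 23 in 2 and 4 in 3. The same count over all genes was not made, so these numbers describe the 118 only. The authors set aside 3 of the 118 in the knockout and 4 in each CHP-134 clone as outliers, with a q of 1.0, so these count as not usable. ZNF219 was set aside in all 3 comparisons: its level was 700 in the knockout and 400 in wild type, 742 in clone 2 and 346 in wild type, and 505 in clone 1 and 325 in wild type. ZNF593, ZNF598 and ZNF668 were set aside in both CHP-134 clones, with log2 fold changes of 0.70, 0.42 and 0.68 in clone 2 and 0.78, 0.33 and 0.55 in clone 1 in the authors' deposited tables. ZNF358 at 0.22 and ZNF672 at -0.15 were set aside in the knockout in the authors' deposited table. With outliers kept, clone 2 would have 53 called and clone 1 would have 17.

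Doxycycline raised TRIM37 in the TetOn clones of RPE1. No library came from RPE1 treated with doxycycline without the inducible TRIM37, so the drug and TRIM37 cannot be told apart. In TetOn clone 5 only ZNF358 was called of 118 usable ZNF genes (0.847%), where 2.97% of all usable genes and 2.65% of those past the limit were called, 1.63% down, in the authors' deposited table. In TetOn clone 4 the authors' DESeq2 table called 0 of 118, where 1.95% of all usable genes and 1.84% of those past the limit were called. At an unadjusted p under 0.05, 5 of the 118 passed in TetOn clone 5 and 9 in TetOn clone 4. With no change in any gene, a share of about 0.05 would pass. The same count over all genes is not given here. ZNF358 stood at 698 with doxycycline and 820 without in TetOn clone 5, a log2 fold change of -0.23 (SE 0.0679, q 0.0255) in the authors' deposited table. In TetOn clone 4 it stood at 820 with doxycycline and 742 without, with 0.14 in the authors' deposited table. The difference between the clones, -0.38, did not pass (adjusted p 0.193). All 118 lay within -0.20 to 0.18 in TetOn clone 5, ZNF358 apart, and within -0.19 to 0.22 in TetOn clone 4. None of the 118 differed between the TetOn clones, where 26 of 11778 genes did (0.221%), and 0.182% of those past the limit.

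Of 31 genes for the KRAB co-repressor and H3K9 methylation, 12 rose and 5 fell of 30 usable in the knockout (56.7%, against 53.6% of all usable genes) in the authors' deposited table. Those that rose most, KIAA1551 at 0.54, ATF7IP at 0.52, CBX5 at 0.48 and PPHLN1 at 0.45, are all on chromosome 12, with its median of 0.52, in the authors' deposited table. TRIM28, the scaffold that KRAB boxes bind, had 0.18 in the knockout with a q of 3.71e-17, and -0.047 and -0.11 in clones 2 and 1 with q values of 0.628 and 0.371, in the authors' deposited tables. SETDB1, its methyltransferase, was not called in any table. MORC2, a silencing ATPase, rose by 0.22 in clone 2 and fell by 0.26 in clone 1 in the authors' deposited tables. The list had 4 up and 4 down of 29 in clone 2 (27.6%), where 46.2% of all usable genes were called. In clone 1 it had 0 up and 4 down of 30 (13.3%), where 18.7% were called, and with doxycycline none. The other C2H2 families were 35 genes named ZFP, ZBTB, ZSCAN or ZKSCAN with a number and past the same limit. They had 4 up and 10 down of 34 in the knockout (41.2%) in the authors' deposited table, where 56.1% of all usable genes past the limit were called. They had 6 up and 6 down of 35 in clone 2 (34.3%), where 49.6% past the limit were called. In clone 1 they had 2 up and 8 down (28.6%), where 19.4% past the limit were called, and with doxycycline none. The largest single change among them was a fall of 0.91 for ZSCAN30 in clone 1 in the authors' deposited table.

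The limit of 300, set on the mean over both groups of each table, also left out most ZNF genes with larger changes. Of ZNF genes below it, 32 of 303 usable ones changed by a log2 fold change of 1 or more with a q under 0.05 in clone 2 (10.6%), against 0 of 114 above it and 4.07% of all usable genes. On chromosome 19 the share was 28 of 183 (15.3%), and on other chromosomes 4 of 120 (3.33%). In clone 1 all 7 such genes were on chromosome 19, out of 182 usable there and 120 elsewhere, with 1.11% over all usable genes. In the knockout the share was 7.59%, with 1 up and 21 down, against 6.0% of all usable genes. It was 7.51% on chromosome 19 and 7.69% elsewhere. The shares over all usable genes include genes past the limit, where such changes were rare. In the knockout these were 44 of 7257 past the limit and 780 of 13002 in all. The all-gene shares are thus not matched on count, and the share of all genes below the limit was not computed. No test of these shares was made, and SEs were larger below the limit. In clone 2 the median SE was 0.157 at mean counts of 50 to 300 and 0.0761 above. The deposited fold changes were small at the lowest counts. In clone 2 the largest absolute log2 fold change at mean counts of up to 1 was 0.52. Group levels are split by these fold changes, so low levels are uncertain.

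Single ZNF genes were sought that were on in 1 group and off in the group set against it, whatever their level elsewhere. On was a level of 50 or more and off a level of 5 or less. There were 11 such genes, none of them among the 118, and 10 lie in chromosome 19 clusters. In CHP-134 clone 2, 3 of 193 chromosome 19 ZNF genes that reached the on level in either group were off (1.55%), with 0.0667% of all genes. Between the TetOn clones the share was 6 of 161 (3.73%), with 0.47% of all genes and 0.339% of chromosome 19 genes that are not ZNF. The knockout had 1 of 184 (0.543%), with 0.159% of all genes, and clone 1 had 0 of 186, with 0.0% of all genes. These genes were picked for this pattern, so their levels are a description.

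ZNF257, ZNF649 and ZNF808 were off in CHP-134 clone 2. Loss of ZNF808 is known to cause failure of the pancreas to form in humans. ZNF808 was at 4.42 in clone 2, 112 in clone 1 and 91.4 in wild type. ZNF257 was at 4.27 in clone 2, 85 in clone 1 and 67.9 in wild type, and ZNF649 was at 3.98 in clone 2, 53.5 in clone 1 and 56.2 in wild type. All 3 were low in clone 2, while in clone 1 ZNF257, ZNF649 and ZNF808 had q values of 0.298, 0.841 and 0.232 against wild type in the authors' deposited table. Of the transcript of ZNF808, 18.5% of 50-base stretches occur in other transcripts, so its counts are uncertain.

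ZNF439 was at 3.94 in the RPE1 knockout and 65.3 in wild type, with a log2 fold change of -4.05 (SE 0.352) in the authors' deposited table. Its neighbour ZNF440 was at 172 in the knockout and 238 in wild type, and ZNF700 at 316 in the knockout and 352 in wild type. In the TetOn clones, which are also RPE1, ZNF439 had a mean count of 0.539 in clone 5 and 14.2 in clone 4.

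Between the TetOn clones, 6 genes were on in clone 5 and 1 in clone 4. Their tables were normalised separately, and over 7468 genes the clone 5 mean counts stood at a median of -0.16 on the log2 scale against clone 4. ZNF93, which represses LINE-1 elements, had mean counts of 76.8 in clone 5 and 0.987 in clone 4. ZNF568, whose mouse counterpart represses a placental Igf2 transcript, had 104 in clone 5 and 1.29 in clone 4. ZNF829, its neighbour, had 111 in clone 5 and 1.59 in clone 4. ZNF528 had 107 in clone 5 and 1.12 in clone 4, and ZNF347 had 70.5 in clone 5 and 0.478 in clone 4. ZNF853, on chromosome 7, had 84 in clone 5 and 1.51 in clone 4. ZNF486 ran the other way, with 0.163 in clone 5 and 106 in clone 4. With doxycycline, none of the 7 was called in the clone where it was on, and in the other clone each was too low for a test, in the authors' deposited tables. Some of them also differed in the other lines: ZNF528 was at 4.29 in the RPE1 knockout and 33.1 in wild type, and at 73.9 in CHP-134 clone 2, 234 in clone 1 and 45.1 in wild type. ZNF853 was at 12.7 in the knockout and 69.7 in wild type, and ZNF347 at 52.9 in the knockout and 128 in wild type. ZNF506, near ZNF93, had 48.7 in TetOn clone 5 and 0.957 in TetOn clone 4, just short of the on level.

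**Figure D4:**
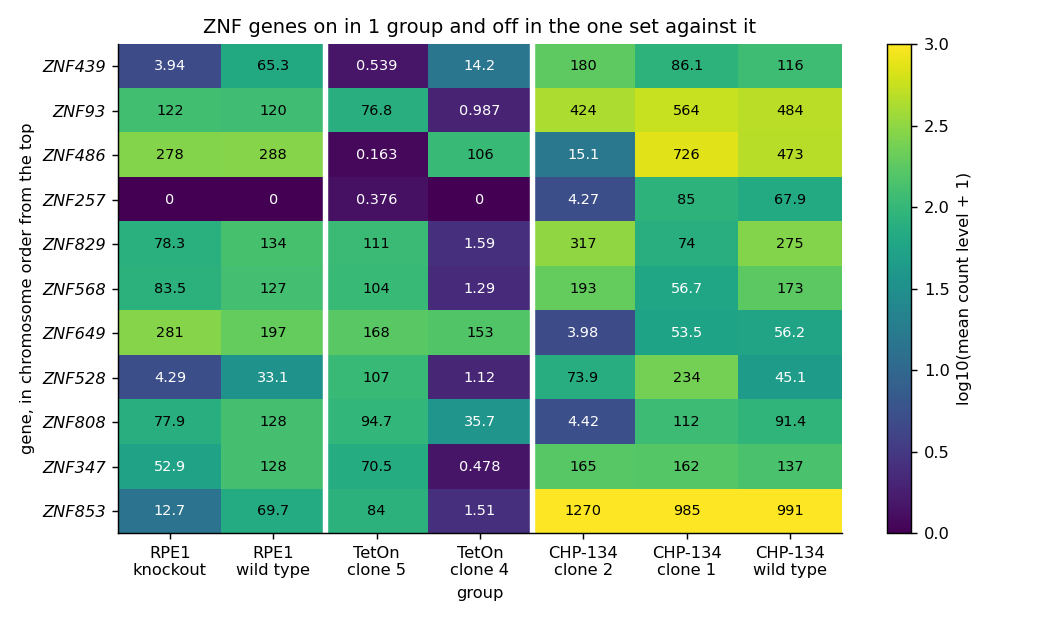
Group levels (colour, log10 of the level plus 1; numbers are the levels) of the 11 ZNF genes found on in 1 group and off in the one set against it, for the RPE1 knockout and wild type, TetOn clones 5 and 4 (mean counts of their tables) and CHP-134 clones 2 and 1 with wild type. Dark cells show where a gene was off, such as ZNF486 in TetOn clone 5 and ZNF808 in CHP-134 clone 2.

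The 250 bases before the RefSeq start of 5 of these genes (GRCh38.p14, plus strand of the chromosome), or the part outside GENCODE exons, are shown because the genes were on in one line and off in another. Capitals mark CG, the pair at which vertebrate DNA is methylated.
ZNF439, chr19:11848476-11848725: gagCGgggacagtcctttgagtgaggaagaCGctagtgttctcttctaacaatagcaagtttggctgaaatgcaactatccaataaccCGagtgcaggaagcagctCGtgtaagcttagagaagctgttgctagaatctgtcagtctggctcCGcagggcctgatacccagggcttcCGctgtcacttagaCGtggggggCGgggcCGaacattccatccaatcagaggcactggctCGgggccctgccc
ZNF93, chr19:19900696-19900912: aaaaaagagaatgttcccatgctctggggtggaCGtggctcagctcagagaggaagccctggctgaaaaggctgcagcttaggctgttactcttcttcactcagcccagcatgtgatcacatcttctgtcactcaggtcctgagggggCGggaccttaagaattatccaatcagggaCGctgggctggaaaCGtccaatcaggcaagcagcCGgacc
ZNF486, chr19:20166964-20167213: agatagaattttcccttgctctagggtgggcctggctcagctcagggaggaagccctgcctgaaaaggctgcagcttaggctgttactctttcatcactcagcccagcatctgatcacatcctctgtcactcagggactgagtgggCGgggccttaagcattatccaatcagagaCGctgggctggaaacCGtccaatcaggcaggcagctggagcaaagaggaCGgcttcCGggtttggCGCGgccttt
ZNF257, chr19:22052234-22052451: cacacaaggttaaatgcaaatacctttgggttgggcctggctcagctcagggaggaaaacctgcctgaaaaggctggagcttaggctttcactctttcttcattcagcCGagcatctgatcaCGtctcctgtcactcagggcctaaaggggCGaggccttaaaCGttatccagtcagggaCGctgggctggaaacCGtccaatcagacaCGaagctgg
ZNF853, chr7:6615360-6615609: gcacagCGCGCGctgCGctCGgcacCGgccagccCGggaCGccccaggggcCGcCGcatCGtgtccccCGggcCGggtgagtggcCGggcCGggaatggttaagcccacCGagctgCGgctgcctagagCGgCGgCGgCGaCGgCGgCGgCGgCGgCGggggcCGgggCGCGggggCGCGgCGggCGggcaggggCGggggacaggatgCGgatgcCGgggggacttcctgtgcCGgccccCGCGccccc
The windows of ZNF486 and ZNF93, on opposite sides of the pattern between the TetOn clones, share an unbroken run of 32 bases. Those of ZNF257 and ZNF486, both low in CHP-134 clone 2, share 28. The longest run that ZNF439 shares with any of these is 12. Full windows hold 10 CG in ZNF439, 8 in ZNF93, 7 in ZNF486 and 10 in ZNF257, near the median of 11 over 35116 RefSeq promoter windows. The windows of 5 further genes hold more, with 18 in ZNF568, 19 in ZNF347, 23 in ZNF528, 24 in ZNF808, and 26 and 19 at the 2 starts of ZNF829. ZNF853 holds 40, a number reached by 2.16% of windows. Methylation was not measured.

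Some neighbours of these genes were also low, and others between them were not. The order here is that of RefSeq, and these neighbours were looked at after the values were seen. In CHP-134 clone 2, ZNF90 was at 7.53, against 288 in wild type, and ZNF486 beside it at 15.1, against 473 in wild type. In clone 1 they stood at 465 and 726. ZNF253, further up, was at 84.3 in clone 2 and 256 in wild type. Between them, ZNF682 was at 429 in clone 2 and 411 in wild type, and ZNF93 at 424 in clone 2 and 484 in wild type. ZNF737 followed at 724 in clone 2 and 550 in wild type, and ZNF626 at 29.4 in clone 2 and 116 in wild type. A second run starts at ZNF808, followed by ZNF701 at 10.9 in clone 2 and 87.7 in wild type and ZNF83 at 5.24 in clone 2 and 249 in wild type. The log2 fold changes stayed below 0 over the next 6 ZNF genes, with -0.68 for ZNF611, -0.24 for ZNF600, which was too low for a test, -0.69 for ZNF28 and -0.72 for ZNF468 in the authors' deposited table. They were -3.20 for ZNF320 and -2.46 for ZNF816, the last of the 9, and ZNF160 after it had 0.14, in the authors' deposited table.

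A run of 4 genes in another cluster was low in CHP-134 clone 1. ZNF790, ZNF345, ZNF829 and ZNF568, in that order, had log2 fold changes of -0.98 (SE 0.209), -1.23 (SE 0.192), -1.78 (SE 0.131) and -1.49 (SE 0.152) in the authors' deposited table. In the RPE1 knockout ZNF790 had -0.53 with a q of 0.0607, while ZNF345, ZNF829 and ZNF568 fell, at -0.62, -0.77 and -0.60, in the authors' deposited table. ZNF420 and ZNF585A, the next genes, fell there too, at -0.81 and -0.73, and ZNF585B after them had -0.021 with a q of 0.874 in the authors' deposited table. In clone 1, ZNF850 before them had -0.17 and ZNF420 after them -0.068, with q values of 0.327 and 0.709 in the authors' deposited table. In clone 2, ZNF829 had 0.20 and ZNF568 had 0.16, with q values of 0.0802 and 0.246 in the authors' deposited table. The same 4 genes were low in TetOn clone 4, with mean counts of 0.978, 3.19, 1.59 and 1.29, against 10.3, 33, 111 and 104 in TetOn clone 5. ZNF850 and ZNF420 had 66.8 and 102 in TetOn clone 4, against 79 and 66.9 in TetOn clone 5. Further along, ZNF585A had 62.5 and ZNF585B 26.9 in TetOn clone 4, against 114 and 109 in TetOn clone 5. These 4 genes were thus low in a neuroblastoma clone and in an RPE1 clone.

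**Figure D5:**
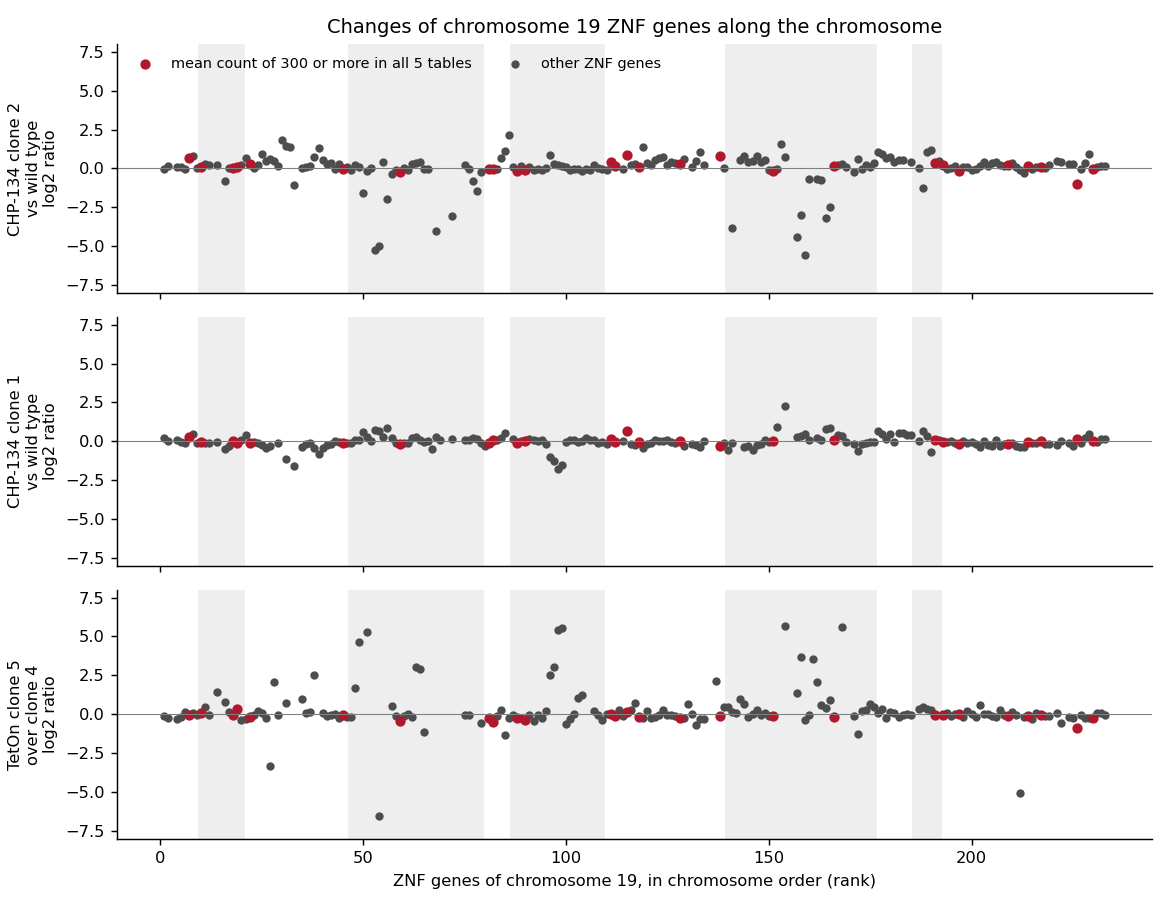
Log2 ratio (y axis) along the ZNF genes of chromosome 19 in chromosome order (x axis, rank) for CHP-134 clone 2 and clone 1 against wild type and for the mean counts, plus 1, of TetOn clone 5 over clone 4. Grey bands mark every other cluster and red points the genes past the count limit. Low runs in clone 2, such as ZNF90 and ZNF486, and in clone 1, such as ZNF829 and ZNF568, involve grey points, while red points stay within 1 of 0 in all panels.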

How the data were processed

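RNA sequencing libraries of 2 cell lines were compared in 5 tables. STAR and DESeq2 are the tools that the submitters' processing notes name for the authors' work. Their versions, the strand setting, the counting rule, the genome build and the annotation were not given in the sources used here. Each deposited table gives a mean count per gene, which is a normalised coverage signal averaged over both groups and not a count per library, a log2 fold change, its standard error and a q-value, per the file headers. The files used here hold the authors' comparisons, so no count model was fitted, and the tests planned on other units were not needed. Depth per library is unknown.

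Symbols of ZNF followed by digits with a mean count of 300 or more in all 5 tables were kept, leaving out 1 gene that is not reported here. Members and gene lists were chosen with earlier results of these data known. A call is a q under 0.05 for a gene the authors gave a test; a q given as 0 is smaller than any other the file can show. TRIM37 set the sign of each table. A level is the mean count split by the fold change. Fold changes of 2 clones were compared by dividing their difference by its SE, taken from both deposited SEs as if independent, with a two-sided normal p and Benjamini-Hochberg adjustment over all genes usable in both, a step tested on simulated data. For each comparison, the called genes named are the 8 that rose most and the 8 that fell most. Those called in both clones with 1 sign and the 6 largest differences between clones are also named. So are genes on in 1 group and off in the group set against it. Chromosomes and promoters came from RefSeq (GRCh38.p14); fingers, KRAB boxes, GC content and shared 50-base stretches came from GENCODE v29 coding and transcript sequences. The KRAB box and fingers were matched by pattern, and ZNF330 matched no finger. Python 3.11.15, numpy 2.4.6, pandas 2.3.3 and scipy 1.17.1 were used. Alternatives were other q thresholds, a minimum fold change of 1.5, other count limits, outliers kept, a rescaled null, and chromosome medians or the GC trend subtracted (GC known for 98.3% of the 118 genes).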

Additional observations from a re-analysis of the deposited data

Results flagged for a closer look

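The items here are ZNF genes whose log2 fold change against the shared wild type differed between CHP-134 clone 2 and clone 1 by the test of the difference itself; values are clone 2 minus clone 1. Among the 118 genes past the count limit, the higher ones in clone 2 were ZNF473 at 1.09, ZNF721 at 0.88, ZNF217 at 0.73, ZNF395 at 0.56, ZNF358 at 0.41, ZNF687 at 0.39, ZNF777 at 0.38, ZNF48 at 0.37, ZNF627 at 0.37 and ZNF134 at 0.35. ZNF746 at 0.34, ZNF646 at 0.32, ZNF268 at 0.31, ZNF275 at 0.27, ZNF264 at 0.25 and ZNF740 at 0.19 were also higher. ZNF544 at -1.13, ZNF639 at -0.63, ZNF706 at -0.44 and ZNF330 at -0.40 were lower. The smallest of these sat near the threshold, with adjusted p-values from that normal test of 0.043 for ZNF740 and 0.0496 for ZNF268.

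Some genes found on in 1 group and off in the group set against it also differed. ZNF486 differed by -5.65, ZNF808 by -4.67, ZNF257 by -4.29, ZNF649 by -3.75, ZNF528 by -1.58 and ZNF93 by -0.50. ZNF829 at 1.98, ZNF568 at 1.65 and ZNF439 at 0.94 were higher in clone 2. These genes were picked partly for their low level in clone 2, so the differences of ZNF808, ZNF257 and ZNF649 are descriptions. With 1 clone behind each value, what TRIM37 and what the clone contributes cannot be told apart.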

How the results depend on the processing

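No paired analysis was possible because the files used here hold no value per library, and leaving out each replicate could not be run for the same reason. The knockout's 42 called ZNF genes became 5 with a minimum of 1.5-fold, 7 with the null rescaled to its central spread, 86 with a count limit of 100, 12 with a limit of 1000 and 159 with no limit. Clone 2's 49 became 5, 3, 104, 9 and 189 under the same 5 settings. Clone 1's 13 became 1, 0, 37, 4 and 70, and 8 at a q under 0.01 or 21 at a q under 0.1. The 1 call in TetOn clone 5, ZNF358, was lost at a q under 0.01, with the 1.5-fold minimum, the rescaled null, the GC trend subtracted and the limit of 1000 (0 in each); limits of 100 and none gave 3 and 5. TetOn clone 4 stayed at 0 under every setting run that kept the 118 genes. The 20 differences between the CHP-134 clones became 11 at a threshold of 0.01, 6 with the rescaled null, 45 at a limit of 100 and 2 at a limit of 1000. A p recomputed from fold change over SE, chosen after seeing the data, gave 41, 49 and 13 calls in the knockout, clone 2 and clone 1.

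Of 392 alternative values over 49 named pairs of gene and comparison, 298 kept direction and call, 92 kept direction but lost the call, 38 of them with the rescaled null and 37 with the 1.5-fold minimum, and 2 changed sign. Those were ZNF664 in the knockout at -0.024 with chromosome medians subtracted, and ZNF639 in clone 1, which was never called, at 0.018 with the GC trend subtracted. Depth per library is unknown, and the counting of reads shared between paralogues is not stated.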

Other observations

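The TetOn tables also allow the levels of the 118 genes to be set side by side between the clones, as authors' mean counts over treated and untreated libraries, with no test. On the log2 scale, clone 5 over clone 4, their median was -0.12 and their range -1.12 to 0.33, where all genes past the limit had a median of -0.16. ZNF384 on chromosome 12 was the lowest of them. The 27 genes on chromosome 19 had a median of -0.12 and reached from -0.86 to 0.33, while all 410 genes of that chromosome past the limit had a median of -0.088.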
